A study of Mus musculus with 6 samples.

Results

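The genes that fold proteins in the endoplasmic reticulum and signal its stress were followed in mouse heart RNA on Affymetrix whole-genome arrays. The list held 36 genes, namely 10 chaperones and their partners, 7 disulphide isomerases and related oxidoreductases, 8 genes of the degradation pathway, 6 stress sensors and transcription factors and 5 stress targets. Every probe set that the platform annotation assigns to exactly 1 of these genes was used. This rule found 84 of 45037 probe sets and all 36 genes of the 18193 with a probe set of their own, with Ero1l present under its current symbol Ero1a. A probe set was tested where its mean log2 value over all arrays exceeded the median of all probe sets (log2 3.29). By that filter 74 probe sets of 35 genes were tested, among 22518 probe sets and 11016 genes in all. Derl3, a derlin of the degradation channel, was not tested, since its only probe set read 2.24, 2.25 and 2.25 on the arrays of the first group below and 2.21, 2.26 and 2.23 on those of the second.

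The first group held 3 arrays of heart RNA from C57BL/6 mice that overexpress hAT1R, the human type 1 receptor for the vasoconstrictor peptide angiotensin II. The second group held 3 arrays from normal C57BL/6 mouse hearts. Both groups share the strain, and the design text states matching by age and sex. The comparison asks which heart transcripts differ when the receptor is overexpressed. The labels and design text name neither the promoter of the transgene nor its founder lines, give no ages and do not say whether each array was a separate animal. The p-values below therefore measure the spread between these samples, which may be in part technical.

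Secreted and membrane proteins enter the endoplasmic reticulum as unfolded chains, where chaperones such as the Hsp70 family member Hspa5 hold them and protein disulphide isomerases join their cysteines. Chains that fail to fold are passed through a membrane channel to the proteasome, a route known as endoplasmic reticulum-associated degradation. Unfolded chains also activate the membrane sensors Atf6, Ern1 and Eif2ak3, which raise folding capacity through Atf6 and Xbp1 and, through Atf4 and Ddit3, a broader stress programme. In heart muscle these genes are known to respond to hypertrophic load, ischaemia and disturbed calcium stores.

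The sample labels and the instrument's own records disagreed, and this bears on the sign of every difference below. In the chip lot field of the records the operator had typed "control" for the 3 arrays whose labels say transgenic, and "transgene" for the 3 whose labels say non-transgenic. The labels were followed, so the first group is called labelled transgenic throughout. If the typed names were right, every difference would have the opposite sign. None of the probe sets used was annotated to the human receptor, so its RNA could not serve as a check. The mouse receptor Agtr1a overlapped between groups (-0.05 ± 0.26, log2 difference with SE). It read 9.97, 9.94 and 9.89 on the labelled transgenic arrays and 10.61, 9.65 and 9.69 on the others, highest on non-transgenic array 1. The hypertrophy genes Myh7 and Nppa were 25.1-fold and 4.58-fold higher in the labelled transgenic group (adjusted p = 0.0101 and 0.015). Fluidics station 2 handled 4 arrays, the labelled transgenic ones with non-transgenic array 1, and station 3 handled non-transgenic arrays 2 and 3. Scan order followed the groups, labelled transgenic first, so order and group cannot be told apart. Xist, the RNA of the inactive X chromosome, was high on labelled transgenic arrays 1 and 3 and on non-transgenic array 2, and the Y-linked Eif2s3y on the other 3. By these transcripts the groups held 2 female and 1 male array against 1 female and 2 male arrays, which goes against matching by sex, and the part of sex in the results was not tested. The gap between the 3' and 5' actin control probe sets lay at 0.80 to 0.94 on the labelled transgenic arrays and at 0.97 to 1.05 on the others. All 9 cardiomyocyte markers of a fixed list were measured, the dimmest at a mean log2 value of 13.59, as the heart label implies.

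No gene of the list passed the test over all genes. In limma's moderated test with Benjamini-Hochberg adjustment, 0 of the 35 measured genes had an adjusted p under 0.05, while 62 of all 11016 genes did (0.563%), of which 46 were higher and 16 lower under the label's transgene, or 33 and 6 with median centring. At an unadjusted p under 0.05, 8 of the 35 genes (22.9%) were higher and 0 were lower, beside 10.6% and 7.88% of all genes. These 8 were Creld2, Manf, P4hb, Xbp1, Sel1l, Creld1, Selenos and Edem1, with differences from 0.17 to 0.70 on the log2 scale. The 3 values of the labelled transgenic group lay above all 3 of the other group for 9 of the 35 genes (25.7%) and below them for 1 (2.86%), beside 14.3% and 10.9% of all genes. The median difference of the 35 genes was 0.11, against 0.01 for all genes. Of the 35, 25 differences (71.4%) were above 0, beside 52.4% of all genes.

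Single arrays moved these counts. With the non-transgenic array 3 left out, 5 genes of the list (14.3%) were higher at an unadjusted p under 0.05 in place of 8. Of all genes 7.54% were higher in that fit. With non-transgenic array 1 left out the median of the list was 0.06. The count of 62 genes over the whole array was 0 without labelled transgenic array 2, without labelled transgenic array 3 or without non-transgenic array 2, 3 without non-transgenic array 3 and 8 without non-transgenic array 1. Without labelled transgenic array 1 it was 81.

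**Figure D1:**
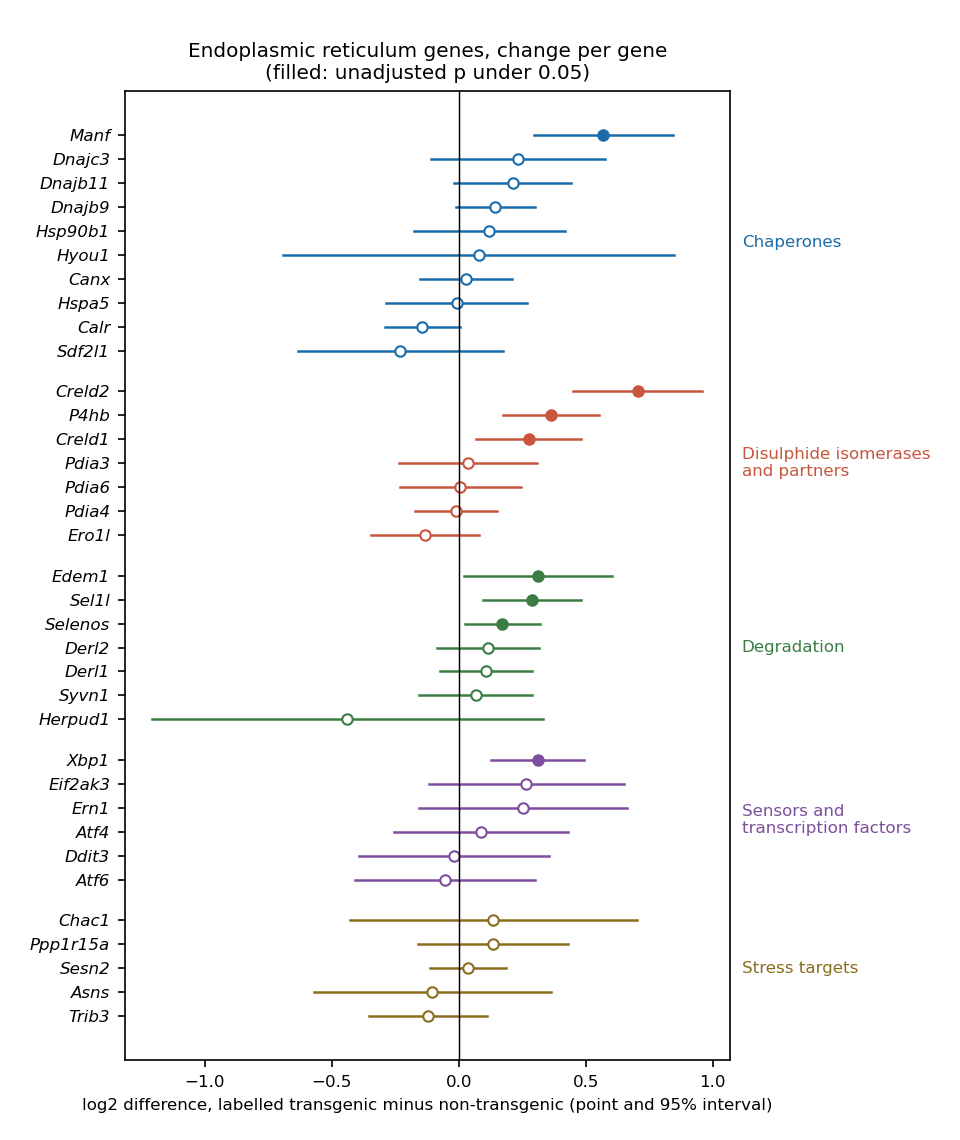
Log2 difference between the labelled transgenic and non-transgenic groups for the 35 measured genes (x axis, log2 units), grouped by role, with 95% intervals from the limma fit as lines and filled points at an unadjusted p under 0.05. Creld2 (0.70) and Manf (0.57) lie farthest to the right, and the intervals of most chaperones, Atf6, Ddit3 and all 5 stress targets span 0.

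Many genes of this pathway carry a short element near their start that Atf6 and Xbp1 are known to bind, the endoplasmic reticulum stress element (ERSE), spelled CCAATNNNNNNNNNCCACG, or its shorter form ERSE-II, spelled ATTGGNCCACG. Both were searched on both strands of RefSeq promoter windows (GRCm38.p6) that run from 250 bases before to 50 bases after each gene's start. Only exact matches to these spellings were counted, so a window without a match may still hold a near match. Windows were found for 32 of the 36 genes, and not for Atf6, Derl1, Hyou1 and Manf. ERSE was present in the windows of 9 of these 32 genes and of 37 of all 27025 genes (0.119% of all 32851 windows). ERSE-II was in those of 2 of the 32 and of 12 of all genes (0.0365% of all windows). The bases upstream of Creld2 and Hspa5 are shown first because both carry an ERSE, while Creld2 had the largest difference in RNA of the list and Hspa5 one near 0. Capitals mark the element, and the sequence is given 5' to 3' on the gene's strand. That of Creld2 lies at chr15:88819396-88819645 (plus strand) and that of Hspa5 at chr2:34771840-34772089 (plus strand).
Creld2: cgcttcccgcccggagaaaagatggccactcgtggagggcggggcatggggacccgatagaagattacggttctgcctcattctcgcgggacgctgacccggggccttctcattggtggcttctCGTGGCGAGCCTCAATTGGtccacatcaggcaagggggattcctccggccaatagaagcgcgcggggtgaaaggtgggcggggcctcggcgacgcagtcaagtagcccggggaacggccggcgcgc
Hspa5: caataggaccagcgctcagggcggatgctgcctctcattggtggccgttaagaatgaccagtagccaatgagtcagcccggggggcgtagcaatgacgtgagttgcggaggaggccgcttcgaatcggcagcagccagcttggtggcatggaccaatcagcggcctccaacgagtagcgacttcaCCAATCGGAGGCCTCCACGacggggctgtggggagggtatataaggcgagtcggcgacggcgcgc

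The exact match in Creld2 begins 126 bases before the start and reads as the reverse complement. That in Hspa5 begins 65 bases before the start and reads as spelled, and near matches in either sequence were not searched. The other elements are shown with 10 flanking bases on either side, or 8 for ERSE-II. The spacing within each element was fixed by the search. Hsp90b1 carries 2 exact matches, and those of Calr and Derl3 run in the reverse orientation like that of Creld2. The Hsp90b1 pair lies at chr10:86705628-86705666 and chr10:86705523-86705561 (minus strand), Calr at chr8:84847065-84847103 (minus strand), Canx at chr11:50325790-50325828 (minus strand), Pdia6 at chr12:17266481-17266519 (plus strand), Dnajc3 at chr14:118937817-118937855 (plus strand), Derl3 at chr10:75893232-75893270 (plus strand), Syvn1 at chr19:6046522-6046560 (plus strand) and Herpud1 at chr8:94386369-94386395 (plus strand).
Hsp90b1, distal: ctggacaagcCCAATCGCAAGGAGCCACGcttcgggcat
Hsp90b1, proximal: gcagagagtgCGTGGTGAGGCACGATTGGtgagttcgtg
Calr: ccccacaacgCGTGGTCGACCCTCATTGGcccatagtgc
Canx: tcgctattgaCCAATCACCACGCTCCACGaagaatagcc
Pdia6: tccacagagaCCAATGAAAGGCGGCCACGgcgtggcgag
Dnajc3: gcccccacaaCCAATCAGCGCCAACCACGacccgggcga
Derl3: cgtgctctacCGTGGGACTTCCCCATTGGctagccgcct
Syvn1: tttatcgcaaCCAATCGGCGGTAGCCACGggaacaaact
Herpud1, ERSE-II: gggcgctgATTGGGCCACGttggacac

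The second ERSE-II match was in Dnajb11, 8 bases after its start. Of the 10 measured genes with ERSE or ERSE-II in the window, 1 (Creld2) was higher at an unadjusted p under 0.05, with a median difference of 0.05 and a range from -0.44 to 0.70. Of the 21 measured genes with a window but no exact match to either element, 6 were higher, with a median of 0.13 and a range from -0.23 to 0.36. The share among all genes was 10.6%, so that 1 of 10 lies at the background, and the difference between these sets was not tested. A further element, known as the unfolded protein response element of Xbp1, was searched as TGACGTGG only. In that spelling it was in the windows of 0 of the 32 members and of 193 of all 27025 genes (0.676% of all windows). Other spellings of it were not searched. The element bound by Atf4 with C/EBP proteins, searched as TGATGNAA, was in the windows of Chac1, Trib3, Asns and Herpud1. It was in those of 1219 of all 27025 genes (3.97% of all windows). These matches are letters in a window and not measured binding.

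Of the 10 chaperones and partners 1 (10%) was higher at an unadjusted p under 0.05, which lies at the 10.6% of all genes. It was the cochaperone-like secreted protein Manf. Manf, which is held in the endoplasmic reticulum and released under stress, had log2 values of 10.11, 10.27 and 9.89 on labelled transgenic arrays 1 to 3 and 9.50, 9.45 and 9.62 on the non-transgenic ones. All 3 labelled transgenic values lay above the others, a 1.48-fold difference of 0.57 ± 0.11 (log2, SE) with adjusted p = 0.0849. Hspa5, the Hsp70 of the endoplasmic reticulum and a standard marker of its stress, had values of 12.74, 12.92 and 12.54 against 12.63, 12.80 and 12.80. Its groups overlapped, with means of 12.73 ± 0.19 (SD, n = 3) and 12.74 ± 0.10 and a difference of -0.01 whose 95% interval ran from -0.29 to 0.27. Another Hspa5 probe set was at -0.01 and the dimmest at -0.18.

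Hsp90b1, the Hsp90 of this compartment, read 11.50, 11.75 and 11.29 on the labelled transgenic arrays and 11.38, 11.37 and 11.43 on the others. Here the labelled transgenic arrays spread around the tight non-transgenic values, and the difference was 0.12 ± 0.12. It was 0.00 without labelled transgenic array 2, 0.0292 without non-transgenic array 1 and 0.23 without labelled transgenic array 3. Calr, a calcium-binding lectin chaperone, was the gene whose labelled transgenic values all lay below the others. It read 11.51, 11.53 and 11.46 against 11.64, 11.66 and 11.62, a difference of -0.14 ± 0.06 (adjusted p = 0.288). The other Calr probe sets were at -0.24 and -0.11. Its membrane-bound relative Canx was at 0.03 ± 0.07 with its groups overlapping.

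The J-domain partners of Hspa5 had positive differences. Dnajb9 was at 0.14 ± 0.06 with no overlap between groups, Dnajb11 at 0.21 ± 0.10 and Dnajc3 at 0.23 ± 0.14, and none passed (adjusted p from 0.297 to 0.435). Dnajc3 was at 0.0853 without non-transgenic array 3 and at 0.36, with an unadjusted p under 0.05, without array 2. Dnajb11 was at 0.14 without labelled transgenic array 1 and at 0.28, also under 0.05 unadjusted, without array 3. The 5 Dnajc3 probe sets did not give 1 answer. One of them, not the brightest, was at 0.48 with values of 8.04, 7.97 and 7.90 against 7.46, 7.53 and 7.49. In limma's test over all probe sets its adjusted p was 0.0695, below the 0.078 of Creld2 there. The 3 dimmer ones lay between 0.03 and 0.05. Hyou1, a large Hsp110-type chaperone, had the widest spread between arrays of the list, with a value of 6.43 on labelled transgenic array 2 and 5.19 to 5.78 on the other arrays. Without that array its difference was -0.29 in place of 0.08. Sdf2l1, a partner of Hspa5 and Dnajb11, was near the filter, at 3.35, 3.35 and 3.20 against 3.80, 3.17 and 3.64, with a difference of -0.23 ± 0.17 on these dim values. Without non-transgenic array 1 it was -0.0992, without array 2 it was -0.41 with an unadjusted p under 0.05, and with the station block it was -0.49.

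The disulphide group split between P4hb with the Creld pair and the remaining isomerases. Creld2, an endoplasmic reticulum-resident disulphide isomerase with EGF-like repeats that is induced by unfolded protein, had the largest difference of the list. It read 8.23, 7.97 and 8.09 against 7.24, 7.50 and 7.45. The lowest labelled transgenic array exceeded the highest non-transgenic one, and the 1.63-fold difference of 0.70 ± 0.11 had adjusted p = 0.0592 (0.0204 at the lowest and 0.182 at the highest among the alternatives). It passed with the stricter brightness filter, with a variance trend (adjusted p = 0.0444) and with array weights (adjusted p = 0.0491). Manf passed with the stricter filter alone (adjusted p = 0.041), and its range was 0.041 to 0.264.

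P4hb, the best known protein disulphide isomerase and the beta subunit of collagen prolyl 4-hydroxylase, read 11.21, 11.04 and 11.21 against 10.76, 10.85 and 10.76. Its groups were apart by 0.36 ± 0.08 (1.29-fold, adjusted p = 0.0963). Creld1, a membrane-anchored relative of Creld2 linked to heart septum formation, read 7.88, 7.86 and 8.02 against 7.67, 7.74 and 7.53. It was also without overlap, at 0.28 ± 0.09 (adjusted p = 0.177). Both genes had 1 probe set each.

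The other oxidoreductases had differences near 0. Pdia3, which works with Calr and Canx on glycoproteins, was at 0.03 ± 0.11, and Pdia6, a regulator of Ern1 signalling, at 0.01 ± 0.10, with the sign of Pdia6 turning with quantile normalization (-0.01). Pdia4 was dim and flat, at 4.06, 4.18 and 4.06 against 4.10, 4.12 and 4.12, a difference of -0.01 with a 95% interval from -0.17 to 0.15. Ero1l, the oxidase that recharges the isomerases, read 8.12, 8.05 and 8.14 against 8.22, 8.38 and 8.11. Its values overlapped, and the difference of -0.13 ± 0.09 had adjusted p = 0.473.

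**Figure D2:**
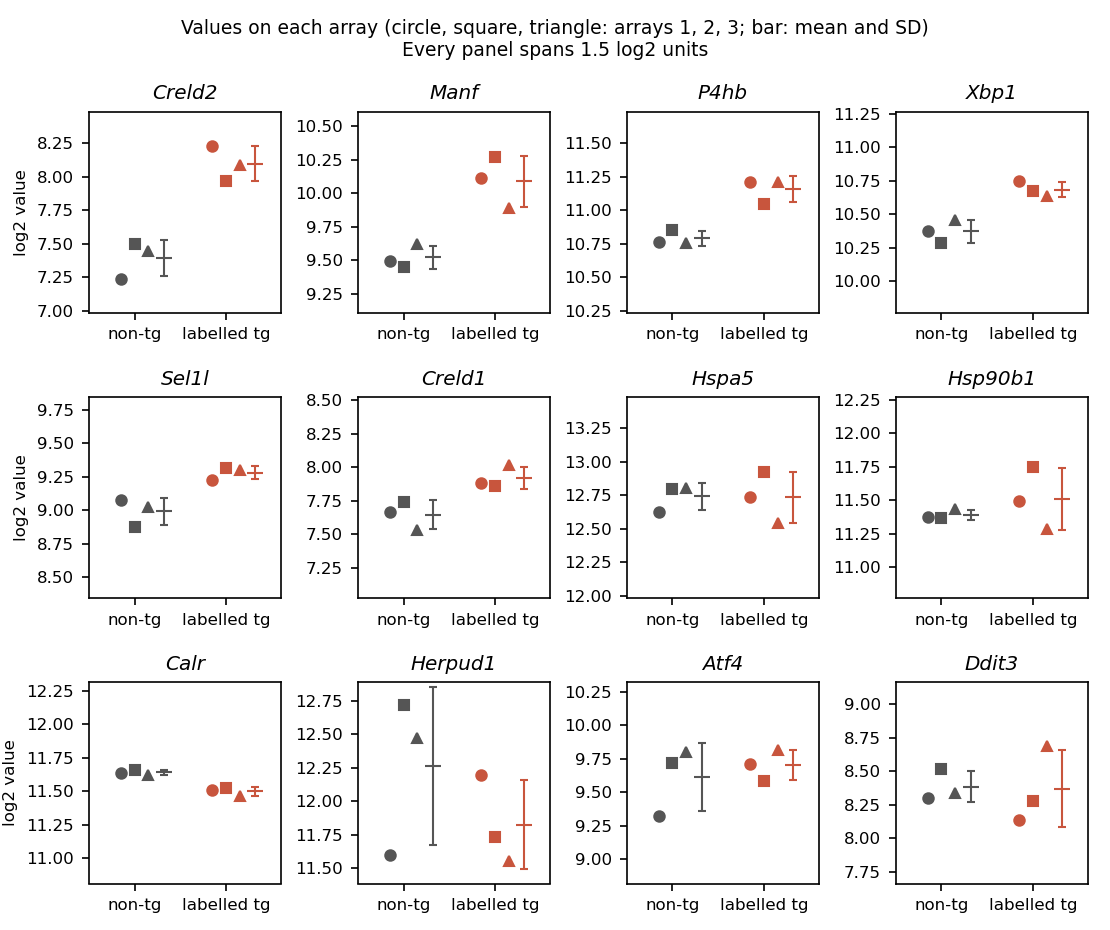
Log2 value on each array for 12 genes (y axis, log2 units, each panel 1.5 units tall), with non-transgenic arrays in grey and labelled transgenic arrays in red and the mean with SD beside each group. The groups are apart for Creld2, Manf, P4hb, Xbp1, Sel1l and Creld1, overlap for Hspa5, Hsp90b1, Atf4 and Ddit3, and in Herpud1 non-transgenic array 1 (11.59) lies far below arrays 2 and 3 (12.72 and 12.47).

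In the degradation pathway 6 of 7 measured genes had a positive difference (52.4% of all genes did), and 3 were higher at an unadjusted p under 0.05 (10.6% of all genes). Sel1l, the scaffold of the membrane ubiquitin ligase complex, read 9.23, 9.32 and 9.30 against 9.07, 8.88 and 9.03. Its groups did not overlap, and the difference was 0.29 ± 0.08 (1.22-fold, adjusted p = 0.144). Of the other 4 Sel1l probe sets, 1 was at 0.28 and the remaining ones lay from -0.06 to 0.11. Edem1, a lectin that picks misfolded glycoproteins, read 6.57, 6.64 and 6.50 against 6.03, 6.46 and 6.29. Here the gap between the groups was narrow, with a difference of 0.31 ± 0.12 (adjusted p = 0.245), and the other Edem1 probe set was at 0.14. Selenos, a selenoprotein of the channel complex, read 10.51, 10.45 and 10.45 against 10.29, 10.29 and 10.31. Its tight groups were apart by 0.17 ± 0.06 (adjusted p = 0.219), and its other probe sets were at 0.16 and 0.02.

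The ligase Syvn1, partner of Sel1l, was at 0.07 ± 0.09 and the derlins Derl1 and Derl2 at 0.11 ± 0.07 and 0.12 ± 0.08, with overlapping groups. Herpud1, a partner of that ligase, did not follow the group labels. It read 12.19, 11.73 and 11.55 on the labelled transgenic arrays and 11.59, 12.72 and 12.47 on the non-transgenic ones. The highest values were on the arrays of station 3, and non-transgenic array 1, washed on station 2, was as low as the labelled transgenic arrays. The arrays of station 3 were also scanned last, so station and scan order cannot be told apart here, and the cause was not tested. The difference was -0.44 ± 0.32 over all arrays and 0.23 with the fluidics station as a block. Without non-transgenic array 1 it was -0.77, at an unadjusted p under 0.05, and without array 2 it was -0.21. The second Herpud1 probe set had the same pattern, with 11.65, 11.23 and 11.14 against 11.39, 12.30 and 12.06.

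Of the 6 sensors and transcription factors, Xbp1 was the only gene at an unadjusted p under 0.05 over all arrays. That is 16.7%, beside 10.6% of all genes that were higher. Xbp1, whose RNA is spliced by Ern1 into the form that encodes an active factor, read 10.75, 10.67 and 10.63 against 10.38, 10.29 and 10.46. Its groups did not overlap, with a difference of 0.31 ± 0.08 (1.24-fold, adjusted p = 0.122). Other Xbp1 probe sets were at 0.43 and 0.41, and the dimmest, near log2 4.6, at 0.02. In limma's test over all probe sets the first 2 had adjusted p = 0.0802 and 0.0823, below the 0.108 of Manf there. The annotation does not separate spliced from unspliced Xbp1, so splicing was not measured.

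The 3 sensors had values that overlapped between groups. Atf6 read 10.37, 9.96 and 10.20 against 10.01, 10.42 and 10.26, with its other probe sets at -0.08 and 0.01. Ern1 read 7.46, 7.35 and 7.99 against 7.35, 7.38 and 7.31, so that its difference of 0.25 ± 0.17 came mainly from labelled transgenic array 3, and it was 0.06 with that array left out. Eif2ak3, the kinase that slows translation, read 5.99, 5.74 and 5.94 against 5.34, 5.92 and 5.61, a difference of 0.27 ± 0.16 (adjusted p = 0.424). It was 0.12 without non-transgenic array 1 and 0.41, with an unadjusted p under 0.05, without array 2.

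Downstream of that kinase, Atf4 read 9.71, 9.58 and 9.81 against 9.32, 9.72 and 9.80. Non-transgenic array 1 was the low one, and the difference was 0.09 ± 0.14, or -0.06 without it. Ddit3, the death-associated factor also named Chop, read 8.14, 8.28 and 8.69 against 8.30, 8.52 and 8.34. These overlapped fully, with a difference of -0.02 and a 95% interval from -0.39 to 0.36.

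On their brightest probe sets, none of the 5 targets of Atf4 and Ddit3 reached an unadjusted p under 0.05 over all arrays, and all overlapped between groups. Trib3, a pseudokinase induced late in the response, read 4.45, 4.48 and 4.45 against 4.76, 4.54 and 4.43. Its second probe set pointed the other way, at 4.22, 3.91 and 4.40 against 3.80, 3.34 and 3.66, a difference of 0.58 without overlap and at an unadjusted p under 0.05, so that no single direction holds for the gene. Asns, asparagine synthetase, was close to the filter at 3.56, 3.41 and 3.41 against 3.31, 4.01 and 3.37. Ppp1r15a, which reverses the translation block, read 7.04, 6.95 and 7.27 against 7.01, 6.77 and 7.07, a difference of 0.13 ± 0.12. Chac1, a glutathione-degrading enzyme, was at 0.14 ± 0.23 and the stress-induced sestrin Sesn2 at 0.04 ± 0.06.

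Counted by probe set, 0 of 74 passed over all probe sets, where 49 of 22518 did (0.218%). At an unadjusted p under 0.05, 13 of the 74 (17.6%) were higher and 1 (1.35%) lower, beside 9.41% and 6.98% of all probe sets. The 13 belonged to 10 genes, the 8 above with Dnajc3 and Trib3, and the lower one to Calr. For 20 genes several probe sets were tested, and in 11 of these all had the same sign. Among those not given above, the further probe sets were, for chaperones and their partners, Hsp90b1 at 0.11, Canx at 0.02 and -0.13, Hyou1 at -0.09 and 0.24, and for the others Ero1l at -0.22 and 0.02, Syvn1 at 0.26. In the same way they were Derl1 at 0.06, 0.14 and 0.08, Derl2 at -0.11, Ern1 at 0.03 and -0.16, Atf4 at -0.06 and 0.01, Ddit3 at -0.27. Probe set names with the suffix s or x, among them those used here for Hspa5, Canx, Derl1, Syvn1, Selenos, Xbp1, Trib3 and Asns, mark probes that can match more than 1 transcript. The spread between arrays of a group had a median SD of 0.13 over the 35 genes and 0.14 over all genes, and exceeded 0.3 in Hyou1, Herpud1 and Chac1.

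**Figure D3:**
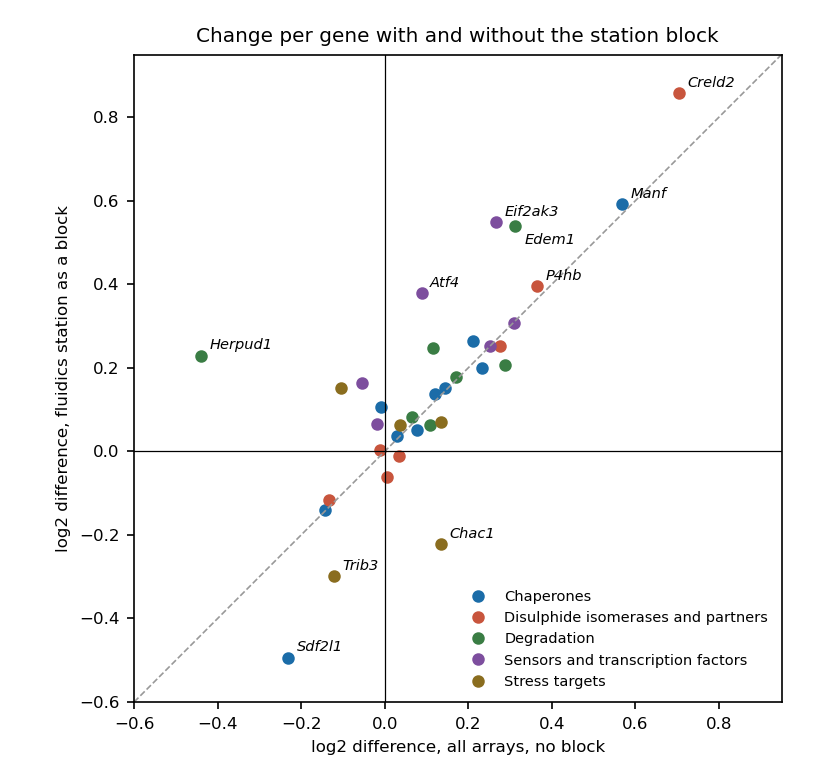
Log2 difference of each of the 35 genes over all arrays (x axis) and with the fluidics station as a block (y axis), coloured by role, with the dashed line at equal values. Creld2, Manf and P4hb stay near or above the line at 0.39 to 0.86 on the y axis, and Herpud1 moves from -0.44 to 0.23.

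Station and group overlapped in part, so each difference was also taken with the station as a block. The block rests on non-transgenic array 1 as the only control on station 2. Agtr1a, which was highest on that array, was at -0.68 with the block. With the block 8 genes of the list were higher at an unadjusted p under 0.05 and 1 was lower, beside 7.08% and 10.5% of all genes, and none passed over all genes. Creld2 was then at 0.86 (adjusted p = 0.0985), Manf at 0.59, P4hb at 0.39, Edem1 at 0.54 and Xbp1 at 0.31, and these 5 were below 0.05 unadjusted in both fits. Derl2 (0.25), Eif2ak3 (0.55) and Atf4 (0.38) reached it with the block alone, and Creld1 (0.25), Sel1l (0.21) and Selenos (0.18) without it alone. Trib3 was the lower one, at -0.30. Of the 35 genes, 26 had the same sign in both fits. Values within station 2 alone gave the same differences and are the same comparison.

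Other genes of the pathway, taken from 5 further lists with 158 measured genes of 174, were read in the same way. None passed over all genes, and at an unadjusted p under 0.05 38 (24.1%) were higher and 7 (4.43%) lower, beside 10.6% and 7.88% of all genes, with a median difference of 0.11. With the station block these counts were 29 (18.4%) and 9 (5.70%), beside 7.08% and 10.5% of all genes. Among 32 genes of translocation and glycosylation 8 were higher and 0 lower, or 5 and 1 with the block. Spcs3, a subunit of the signal peptidase, was at 0.45 ± 0.08 (adjusted p = 0.0633) and Sec63, a J-domain protein of the entry channel, at 0.32 ± 0.08 (adjusted p = 0.119). Among 38 further folding genes 13 were higher and 1 lower, or 8 and 0 with the block. Pdia5, an isomerase outside the main list, had a larger difference than any of its relatives above, at 6.31 against 5.34, or 0.97 ± 0.17 (adjusted p = 0.0633). Gpx8, a peroxidase of the endoplasmic reticulum, was at 0.42 ± 0.07 (adjusted p = 0.0638).

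Of 31 further degradation genes 8 were higher and 1 lower, or 5 and 2 with the block. Ddrgk1, a membrane adaptor of the ubiquitin-like modifier Ufm1, was at 0.49 ± 0.08 (adjusted p = 0.0593). The lectin Os9, which hands glycoproteins to Sel1l, was at 0.33 ± 0.07 (adjusted p = 0.0897). Of 23 further sensors and factors 3 (13%) were higher and 0 lower, near the 10.6% of all genes that were higher. The smallest p was that of Creb3l2, a membrane-bound factor of secretory capacity, at 0.59 ± 0.12 (adjusted p = 0.0924). Atf5 followed at 0.38 ± 0.12 (adjusted p = 0.183). Of 34 further targets of Atf4, 6 (17.6%) were higher and 5 (14.7%) lower, beside 10.6% and 7.88% of all genes. Slc7a1, a carrier of cationic amino acids, was at 7.38 against 8.80, a difference of -1.42 ± 0.20 (adjusted p = 0.0541), and the leucyl-tRNA synthetase Lars at 0.46 ± 0.08 (adjusted p = 0.0621).

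**Figure D4:**
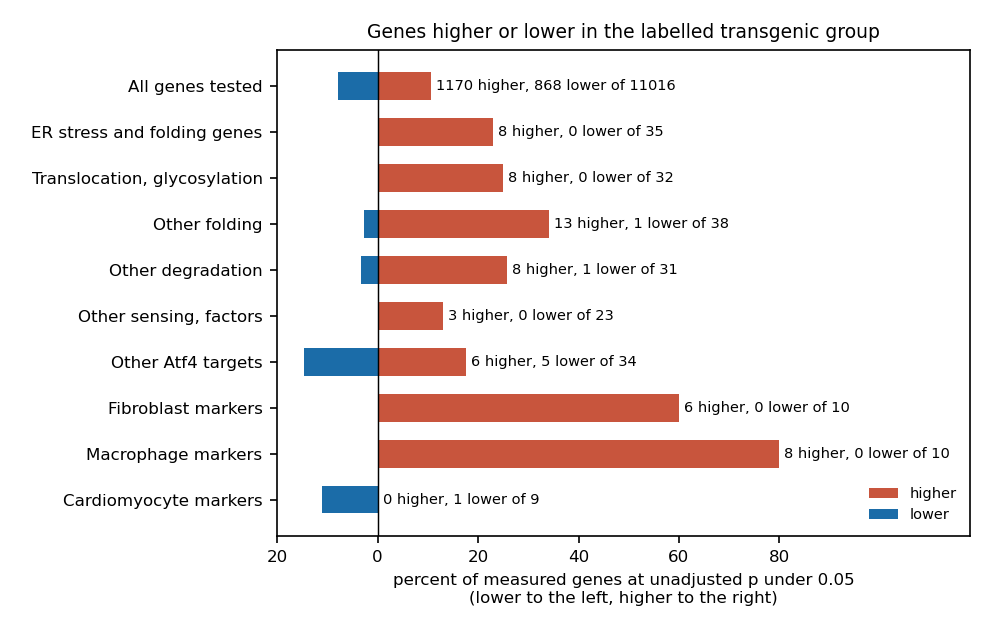
Percent of the measured genes of each list at an unadjusted p under 0.05 (x axis, higher in the labelled transgenic group to the right in red, lower to the left in blue), with the counts beside each bar. The endoplasmic reticulum list has 22.9% higher and 0 lower genes, all genes tested have 10.6% and 7.88%, and the fibroblast and macrophage markers have 60% and 80% higher.

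Most fibroblast and macrophage markers were higher along with these genes at an unadjusted p under 0.05, beside 10.6% of all genes. No marker passed over all genes. In a bulk sample, more cells of a type and more RNA per cell cannot be told apart. Of 10 fibroblast markers 6 were higher at an unadjusted p under 0.05, and 2 had a difference below 0 (Dpep1 at -0.30 and Dpt at -0.09). The summed level of the 10 (log2 of the sum of linear values) was 14.24 to 14.54 on the labelled transgenic arrays and 13.87 to 14.07 on the others. Of 10 macrophage markers 8 were higher, with summed levels of 11.89 to 12.12 and 11.45 to 11.50. With the station block 6 fibroblast and 4 macrophage markers were higher, beside 7.08% of all genes. The summed cardiomyocyte markers were at 18.57 to 18.60 and 18.60 to 18.63. Of the 9 cardiomyocyte markers 1 (Ryr2 at -0.29) was lower at an unadjusted p under 0.05, and 0 with the station block. None of 7 endothelial, 7 smooth muscle, 3 skeletal muscle and 2 erythroid markers was higher, and 2 of the smooth muscle markers were lower. Of all genes 7.88% were lower. With the station block 0 smooth muscle markers were lower and 1 (Cnn1 at 0.73) was higher, and 1 skeletal muscle marker was lower. Plasma and B cells, which hold much endoplasmic reticulum, had 7 of 9 markers below the filter, Jchain and Mzb1 among them, and summed levels of 6.16 to 6.32 and 6.14 to 6.26. The part of fibroblasts and macrophages in the differences of Creld2, Manf, P4hb, Xbp1 and the other genes was not tested.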

How the data were processed

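The deposited values were log2 expression, 1 per probe set and array, and the submitters' processing notes name GCRMA, with version and later steps not given in the sources used here. Deposited instrument records hold other fields (typed name, fluidics station, scan time) and no expression. Values were used as deposited, after 64 control probe sets of 45101 were left out. The platform annotation (2016) gave 1 gene for 34945 probe sets, several for 932 and none for 9160, and the brightest probe set on average stood for its gene. Groups were compared with limma 3.58.1 in R 4.3.3 (lmFit, eBayes, 2-sided, Benjamini-Hochberg, threshold 0.05) over 11016 genes and, separately, 22518 probe sets, and fold values are from its log2 differences. The fit was tested on simulated data. The number of arrays, 3 a group, limits the precision. Between arrays, at most 0.0178% of values were equal. Alternatives covered brightness filter, normalization, variance model, array weights, replicate number and station as blocks, averaging over probe sets of a gene, and each array left out.

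The members and lists were chosen with earlier results of these data known. All members are described. Array values are printed for the 6 smallest unadjusted p in each direction, 12 fixed genes and the brightest and dimmest member of each role, and from each further list the 2 genes with the smallest p are named. Marker lists of endothelium, smooth muscle, skeletal muscle and erythroid cells had 0, 0, 0 and 0 genes higher and 0, 2, 0 and 0 lower at an unadjusted p under 0.05, of 7, 7, 3 and 2 measured. With the station block the counts were 0, 1, 0 and 0 higher and 0, 0, 1 and 0 lower.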

Additional observations from a re-analysis of the deposited data

How the results depend on the processing

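The 8 genes named as higher kept their direction in each alternative that tested them (Edem1 lay below the stricter filter), and Creld2, Manf, P4hb and Xbp1 also their unadjusted p under 0.05. Selenos and Edem1 lost that p in 5 of 6 fits with an array left out (Edem1 at 0.20 without non-transgenic array 1), Creld1 in 2 and Sel1l in 0. Sel1l was at 0.12 and Selenos at 0.12, both above an unadjusted p of 0.05, with probe sets averaged, where Edem1 also lost it, and the station block took it from Sel1l, Creld1 and Selenos. Creld1 and Selenos lost it with the replicate block, and Edem1 with quantile normalization and with the variance trend. The count of all genes called, 62, was 21 with no filter, 257 with the stricter filter, 39 with median centring, 180 with a variance trend, 128 with array weights, 20 with the station block, 0 within station 2 and 0 to 81 with single arrays left out. The count of probe sets, 49, was 15 with no filter, 416 with the stricter filter, 108 with the trend, 2 with the station block, 0 within station 2 and 0 to 75 with single arrays left out. With the replicate number as a block, no gene and no probe set was called (0 and 0). In that fit 6 members (17.1%) were higher unadjusted, beside 9.54% of all genes. The replicate numbers share no known source, and the correlations of same-numbered deviations were -0.08, -0.17 and -0.01, so they were not taken as pairs. Members higher at an unadjusted p under 0.05 were 5 with probe sets averaged per gene (14.3%, beside 10.6% of all genes). They were 5 to 9 with single arrays left out (14.3% to 25.7%, beside 7.17% to 10.6% of all genes). Members lower were 1 with no filter, quantile normalization, the variance trend, the station block or the mean of probe sets, 2 within station 2, and 0 to 1 with single arrays left out. Of all genes, 5.25% to 10.5% were lower at that p in these fits. The members' median was 0.15 with the station block and within station 2, and 0.0581 to 0.13 with single arrays left out.

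Some differences that were above an unadjusted p of 0.05 over all arrays changed sign, and the cause was not tested. With the station block, and equally within station 2, Hspa5 was at 0.11, Pdia3 at -0.0116, Pdia4 at 0.0030, Pdia6 at -0.0616, Herpud1 at 0.23, Atf6 at 0.16, Ddit3 at 0.0665, Chac1 at -0.22 and Asns at 0.15. With probe sets averaged Canx was at -0.0276 and Trib3 at 0.23, and with quantile normalization Pdia6 was at -0.0098. With single arrays left out the ranges were -0.10 to 0.0873 for Hspa5, -0.0134 to 0.0762 for Canx, -0.29 to 0.33 for Hyou1, -0.0795 to 0.0967 for Pdia3, -0.0504 to 0.0087 for Pdia4, -0.0758 to 0.0797 for Pdia6, -0.0033 to 0.14 for Syvn1, -0.16 to 0.0554 for Atf6, -0.0564 to 0.18 for Atf4, -0.18 to 0.0997 for Ddit3, -0.11 to 0.31 for Chac1 and -0.23 to 0.12 for Asns.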
